A study of Mus musculus with 8 samples.

Results

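The genes described here are the 9 of serine synthesis and mitochondrial and cytosolic one-carbon metabolism, namely Phgdh, Psat1, Psph, Shmt1, Shmt2, Mthfd1, Mthfd1l, Mthfd2 and Aldh1l2. They were taken by gene name from a table of 56748 genes, and each name matched 1 gene. RNA had been sequenced from 32D cells, a mouse myeloid line that grows only with interleukin-3 (IL-3). All cells had been transduced with murine Jak2WT or Jak2V617F, the kinase variant that drives myeloproliferative neoplasms. In each background, GLUT1/3 WT clones were compared with GLUT1/3 dKO clones, which had lost the glucose transporters GLUT1 (Slc2a1) and GLUT3 (Slc2a3) by CRISPR-Cas9. Clones 1 and 3 of each of the 4 groups gave 8 libraries after 24 h in medium with 5 mM glucose, 1 mM glutamine, 2 ng/ml IL-3 and serum. Every clone came from a single cell, and the genotyping of the study lists the same GLUT1 deletion for both dKO clones of a background, so the clones of a group are not fully independent samples of a genotype.

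Serine is made from the glycolytic intermediate 3-phosphoglycerate. Phgdh oxidizes it, Psat1 adds the amino group from glutamate, and Psph removes the phosphate. Serine hydroxymethyltransferases, Shmt1 in the cytosol and Shmt2 in mitochondria, then pass a carbon unit from serine to tetrahydrofolate and leave glycine. In mitochondria Mthfd2 oxidizes this unit, Mthfd1l releases it as formate and Aldh1l2 can burn it to carbon dioxide. In the cytosol the trifunctional Mthfd1 takes up formate again for purine and thymidylate synthesis. Phgdh, Psat1, Shmt2, Mthfd1l and Mthfd2 are known targets of the transcription factor ATF4, and proliferating cells are known to use the pathway for nucleotide synthesis.

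Values are deposited FPKM, the fragments on a gene per kilobase of its length and scaled by a library total. Reads on genes, recovered from the FPKM steps, ranged from 16846011 to 48884329 per library, and the median log2(FPKM + 1) of the tested genes lay between 3.06 and 3.12. Slc2a1 averaged 46.57 FPKM in the Jak2WT GLUT1/3 WT clones against 9.319 in the dKO clones, and 58.49 against 15.01 in Jak2V617F. Slc2a3 was less even, at 97.7 and 91.9 FPKM in Jak2WT GLUT1/3 WT clones 1 and 3 against 16.0 and 49.5 in the dKO clones (limma, adjusted p = 0.0612), and at 198.5 and 166.2 against 48.2 and 23.8 in Jak2V617F (limma, adjusted p = 0.0116). Jak2 averaged 250.6 FPKM in Jak2WT against 139.6 in Jak2V617F among GLUT1/3 WT clones (limma, adjusted p = 0.0012). Among dKO clones Jak2 averaged 231 against 158.9 (limma, adjusted p = 0.00878). The backgrounds thus differed in the level of Jak2 RNA as well as in the variant, and the part of this level in the results was not tested. Of 10 myeloid progenitor markers, Prtn3, Spi1, Csf2rb and Il3ra were above 1 FPKM in every library, whereas Mpo, Elane and Ctsg stayed at or under 0.203 FPKM and Kit and Cebpa were listed at 0. The summed FPKM of these 10 was 196 to 221 in Jak2WT GLUT1/3 WT, 144 to 179 in Jak2WT dKO, 165 to 168 in Jak2V617F GLUT1/3 WT and 80.3 to 81.7 in Jak2V617F dKO. The sum of 10 erythroid markers was 94 to 112, 246 to 291, 553 to 910 and 2582 to 4679 in the same order, most of it from globin genes. With GLUT1/3 loss 2 of the 7 tested erythroid markers rose in Jak2WT, beside 7.62% of all tested genes, and 5 rose and Gata1 fell in Jak2V617F, beside 13.7% and 16.2%. Among the 5 was Hba-a2, which passed the filter only through the Jak2V617F dKO group where it was high, so its call carries no weight. Hba-a1 was lost in Jak2WT without any one of the 4 Jak2WT libraries, in Jak2V617F Hba-a1 was lost without GLUT1/3 WT clone 3 or dKO clone 1 and Hba-a2 in 6 of 8 such fits, and Gata1 without GLUT1/3 WT clone 1 or dKO clone 3. Summed over 6 markers, megakaryocyte genes had 65 to 94.3 FPKM in Jak2WT and 183 to 249 in Jak2V617F, and mast cell and basophil genes 51.1 to 101 in Jak2WT and at most 1.96 in Jak2V617F. Most of the megakaryocyte sum came from Itga2b alone, at 61.8, 83.7, 174 and 178 FPKM in the same order of groups. Nearly all of the mast cell sum in Jak2WT was Cpa3, and the other mast cell and basophil markers stayed at or under 0.351 FPKM. The part of these cell type markers, which moved with the groups, in the results was not tested. Summed lymphoid markers stayed at or under 0.881 FPKM. In bulk RNA, fewer cells of a type and less RNA per cell cannot be told apart.

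The 9 genes split into 7 that were well expressed and 2 that were barely detected. Averaged over the 8 libraries, Psat1 stood highest with 165.6 FPKM, followed by Phgdh with 155.2 and Shmt2 with 106.8. Mthfd1l averaged 63.7 FPKM, Mthfd2 48.3, Mthfd1 31.5 and Shmt1 26.9. Psat1 lay above 98.1% and Shmt1 above 83.2% of the 11818 genes tested, those that reached 1 FPKM in 2 or more libraries. Psat1 and Phgdh were not separable as neighbours, since Psat1 was the higher in the GLUT1/3 WT libraries and Phgdh in the dKO libraries. Mthfd1 was above Shmt1 in 6 of the 8 libraries, and below it in both Jak2V617F dKO clones. Clones of the same group differed little in these 7 genes, with coefficients of variation from 0.339 to 15.7% and a median of 5.91%.

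Psph, the last enzyme of serine synthesis, was at the edge of detection. Its FPKM was 0.86 and 0.60 in Jak2WT GLUT1/3 WT clones 1 and 3, 0.61 and 0.50 in Jak2WT dKO, 0.61 and 0.28 in Jak2V617F GLUT1/3 WT, and 0.56 and 0.42 in Jak2V617F dKO. This corresponds to 36 to 147 reads per library, and the groups overlapped except for the Jak2WT GLUT1/3 WT and Jak2V617F dKO clones. The same locus carries the abundant Cct6a on the opposite strand, and 465 of the 7352 exonic bases of Psph in the GENCODE annotation (6.32%) lie in exons of both genes. The strand setting of the read counting was not given in the sources used here, so reads there cannot be assigned to a strand. Aldh1l2, the mitochondrial dehydrogenase of 10-formyl-tetrahydrofolate, had 1 to 18 reads in a library and an FPKM of at most 0.08. Neither gene passed the filter. In a fit without it, limma gave Psph an adjusted p between 0.381 and 0.924 and Aldh1l2 between 0.639 and 1 over the 5 comparisons.

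**Figure D1:**
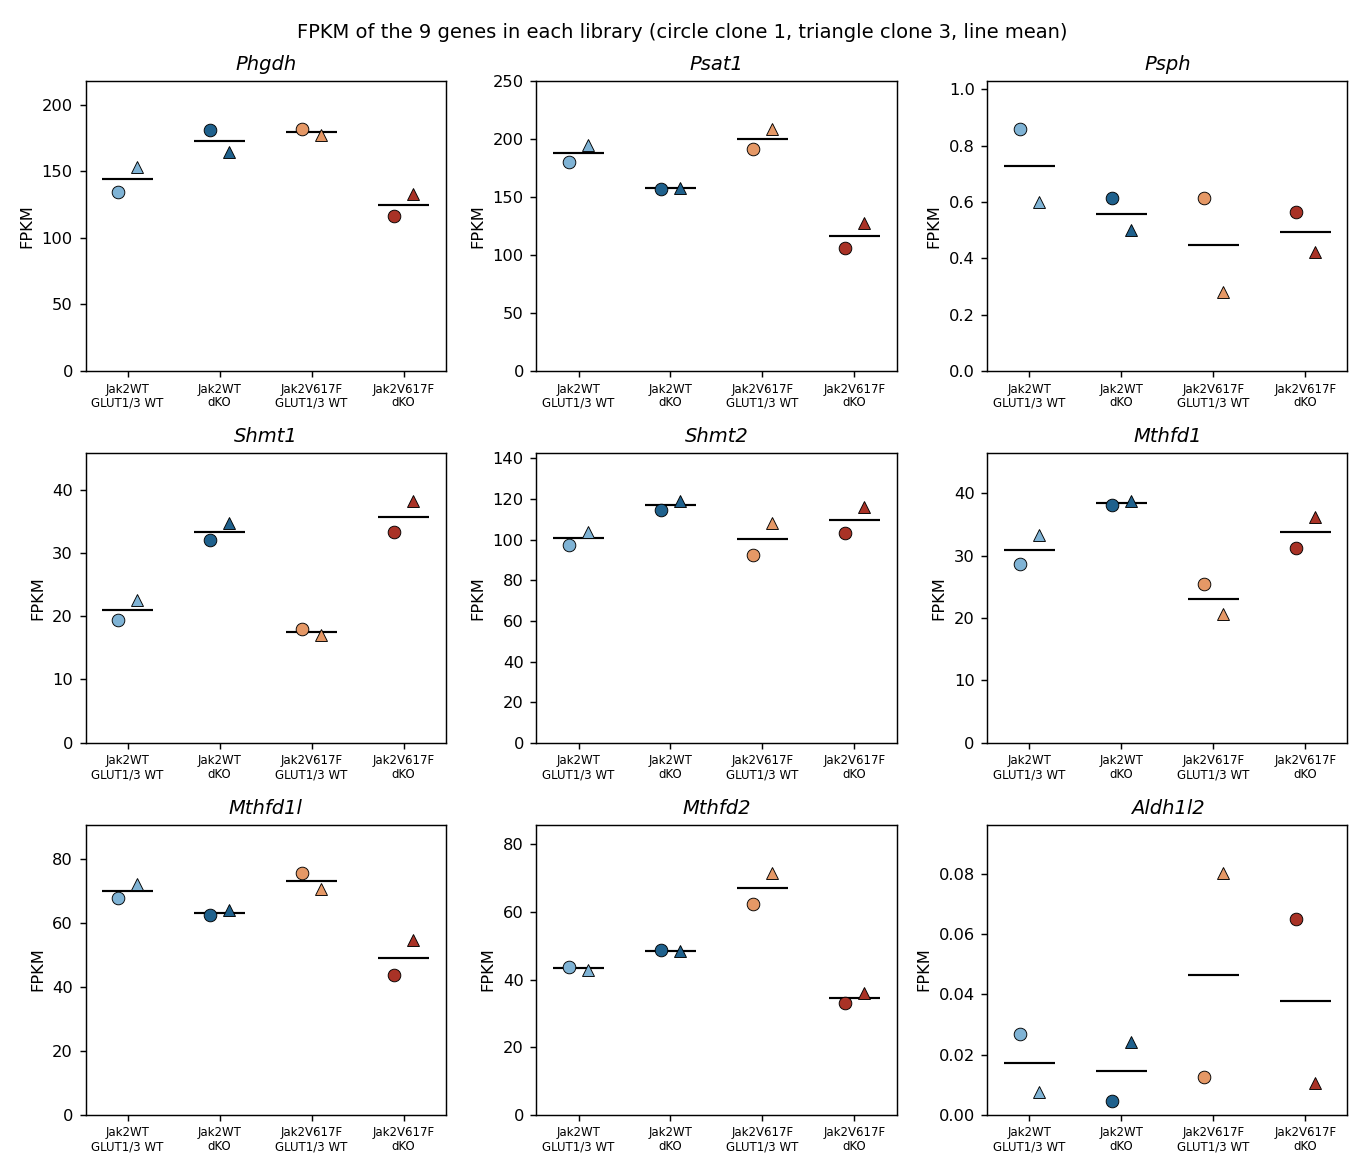
FPKM of each of the 9 genes (vertical axis, starting at 0) in the 8 libraries, by group, with circles for clone 1, triangles for clone 3 and a line at the group mean. Mthfd2 is highest in both Jak2V617F GLUT1/3 WT clones and lowest in both Jak2V617F dKO clones, Shmt1 is higher in the dKO clones of both backgrounds, and the axes of Psph and Aldh1l2 end below 1 FPKM.

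To show what lies upstream of genes that moved in opposite directions, the 100 bases before the RefSeq transcription start were read for the 4 genes that fell and the 2 that rose with GLUT1/3 loss in Jak2V617F. The windows come from the RefSeq promoter table of build GRCm38.p6, which held 8 of the 9 genes, and each was matched to a unique place in GRCm39. CCAAT or its reverse ATTGG, the box bound by NF-Y, is in capitals, and each sequence is written 5′ to 3′ on the strand of its gene.
Phgdh: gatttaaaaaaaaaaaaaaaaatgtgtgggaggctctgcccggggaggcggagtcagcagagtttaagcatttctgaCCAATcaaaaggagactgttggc
Psat1: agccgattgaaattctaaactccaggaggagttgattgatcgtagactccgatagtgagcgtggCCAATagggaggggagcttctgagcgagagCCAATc
Mthfd2: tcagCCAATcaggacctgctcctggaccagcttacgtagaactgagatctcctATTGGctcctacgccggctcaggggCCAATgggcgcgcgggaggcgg
Mthfd1l: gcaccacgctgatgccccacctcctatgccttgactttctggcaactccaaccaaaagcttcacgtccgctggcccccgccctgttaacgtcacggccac
Shmt1: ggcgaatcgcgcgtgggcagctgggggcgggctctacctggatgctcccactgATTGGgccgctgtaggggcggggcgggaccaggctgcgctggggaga
Mthfd1: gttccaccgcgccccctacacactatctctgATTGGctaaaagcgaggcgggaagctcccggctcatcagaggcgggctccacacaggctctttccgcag
They lie at chr3:98247286-98247385 (Phgdh, reverse strand), chr19:15902424-15902523 (Psat1, reverse strand, the upstream of its 2 starts), chr6:83294587-83294686 (Mthfd2, reverse strand), chr10:3922975-3923074 (Mthfd1l, forward strand), chr11:60702092-60702191 (Shmt1, reverse strand) and chr12:76301906-76302005 (Mthfd1, forward strand). Mthfd2 carried 3 such boxes, Psat1 2, Phgdh, Shmt1 and Mthfd1 1 each and Mthfd1l 0. The window of the second Psat1 start held 0 as well. Searched on both strands in the whole table windows, which run from 250 bases before to 50 after the start, CCAAT was found in 6 of the 9 windows of these genes against 37.4% of all 32851 windows. The ATF4 composite element TGATGNAA was in 0 of the 9 windows against 3.97% of all, the E-box CACGTG bound by Myc in 0 against 7.15%, and the E2F motif TTTCCCGC in 0 against 1.07%. The E2F motif TTTGGCGC, the antioxidant response motif TGACTCAGC and the hypoxia response cores ACGTG and GCGTG were in 0, 0, 3 and 8 of the 9 windows, and in 0.514%, 0.454%, 19.6% and 32.4% of all windows. ACGTG also matches within CACGTG. A match is a match of letters only, and its absence covers this window only.

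Loss of GLUT1/3 in Jak2V617F cells moved 6 of the 7 tested genes, in both directions. The serine synthesis genes Psat1 and Phgdh and the mitochondrial genes Mthfd2 and Mthfd1l fell, and the cytosolic genes Shmt1 and Mthfd1 rose. Among all tested genes 16.2% were called lower and 13.7% higher in this comparison, and 64.3% had no overlap of clones between the groups. The median log2 fold change was -0.53 for the 7 genes, which is the value of Phgdh since the genes went both ways, and -0.02 for all genes. With no filter the median over all 9 genes was -0.0116.

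Mthfd2 fell the furthest. Its FPKM was 62.5 and 71.5 in the Jak2V617F GLUT1/3 WT clones and 33.0 and 35.9 in the dKO clones. Each dKO clone lay well under both GLUT1/3 WT clones, and the mean dropped from 67 ± 6.43 to 34.4 ± 2.05 (SD, n = 2 clones), or by 48.6%. The log2 fold change was -0.94 with an SE of 0.090 (limma, adjusted p = 0.000713).

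Psat1 stood at 191.9 and 208.5 FPKM in the GLUT1/3 WT clones and at 105.9 and 127.5 FPKM in the dKO clones. The groups did not overlap, as was so for 64.3% of all tested genes. The mean of Psat1 was 41.7% lower and the log2 fold change was -0.78 with an SE of 0.11 (limma, adjusted p = 0.00252). Phgdh, which commits 3-phosphoglycerate to serine, went from 181.6 and 177.4 FPKM to 116.1 and 132.9. Its mean was 30.6% lower, with a log2 fold change of -0.53, an SE of 0.10 and an adjusted p of 0.0101 in limma. The mouse genome holds 13 further places that match at least 50% of the Phgdh transcript, the best of them 90.9%, and the pseudogenes listed there held 0.81 to 1.21% as many reads as Phgdh. The other 8 genes had 0 such copies.

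Mthfd1l had 75.5 and 70.4 FPKM in the GLUT1/3 WT clones against 43.6 and 54.4 FPKM in the dKO clones, again without overlap. It was 32.8% lower, with a log2 fold change of -0.57, an SE of 0.11 and a limma adjusted p of 0.00967. This call was lost at adjusted p = 0.0569 when only the 2 Jak2V617F groups entered the fit, and also without GLUT1/3 WT clone 1.

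Shmt1 rose the most. Its FPKM was 18.0 and 17.0 in the GLUT1/3 WT clones and 33.3 and 38.2 in the dKO clones, 2.04 times the former on average. The lower dKO clone lay far above the higher GLUT1/3 WT clone, and limma gave a log2 fold change of 0.99 with an SE of 0.11 and an adjusted p of 0.00111. In the annotation 5.34% of the exonic bases of Shmt1 lie in exons of Smcr8 on the opposite strand. Mthfd1 rose from 25.5 and 20.7 FPKM to 31.3 and 36.2, by a log2 fold change of 0.53 with an SE of 0.13 (limma, adjusted p = 0.0193). The Mthfd1 call depended on single libraries, with an adjusted p of up to 0.083 when GLUT1/3 WT clone 3 was left out, and it was lost as well without dKO clone 3, with no filter and with only the Jak2V617F groups in the fit.

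Shmt2 was the exception. It read 92.5 and 108.3 FPKM in the GLUT1/3 WT clones and 103.4 and 115.8 in the dKO clones, so that the groups overlapped. The log2 fold change was 0.13 with a 95% interval from -0.12 to 0.37 (limma, adjusted p = 0.389). Over the 8 libraries its highest FPKM was only 1.29 times its lowest, against 2.24 times for Shmt1. Shmt2 shares 17.7% of its exonic bases with Ndufa4l2 on the opposite strand.

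In Jak2WT cells the same loss moved fewer of these genes past the threshold. Shmt1 alone was called, so that 1 of the 7 genes was higher and 0 were lower, against 7.62% and 6.06% of all tested genes. Shmt1 had 19.4 and 22.6 FPKM in the GLUT1/3 WT clones and 32.0 and 34.7 in the dKO clones. The dKO clones were both above the GLUT1/3 WT clones, by 1.59 times on average, with a log2 fold change of 0.65, an SE of 0.11 and a limma adjusted p of 0.0123. Leaving out any of the 4 Jak2WT libraries took this call away, at an adjusted p of up to 0.0912 without GLUT1/3 WT clone 1. The calls over all genes fell as well, from 901 higher and 716 lower to 74 and 36 without GLUT1/3 WT clone 1, 101 and 54 without GLUT1/3 WT clone 3, 120 and 94 without dKO clone 1 and 183 and 98 without dKO clone 3.

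The other genes moved little in Jak2WT. Phgdh stood at 134.5 and 153.4 FPKM in the GLUT1/3 WT clones and at 180.8 and 164.7 in the dKO clones. Its log2 fold change of 0.26 had a 95% interval from 0.02 to 0.51 (limma, adjusted p = 0.135). Psat1 stood at 180.6 and 195.4 FPKM against 157.0 and 158.0, with a log2 fold change of -0.25 (limma, adjusted p = 0.156). Mthfd1 read 28.6 and 33.3 FPKM against 38.1 and 38.7, with a log2 fold change of 0.31 and a limma adjusted p of 0.147. Shmt2 at 0.21, Mthfd2 at 0.16 and Mthfd1l at -0.14 had log2 fold changes with intervals that included 0. In all 6 of these genes the dKO clones lay on one side of the GLUT1/3 WT clones, as did 66.2% of all tested genes.

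**Figure D2:**
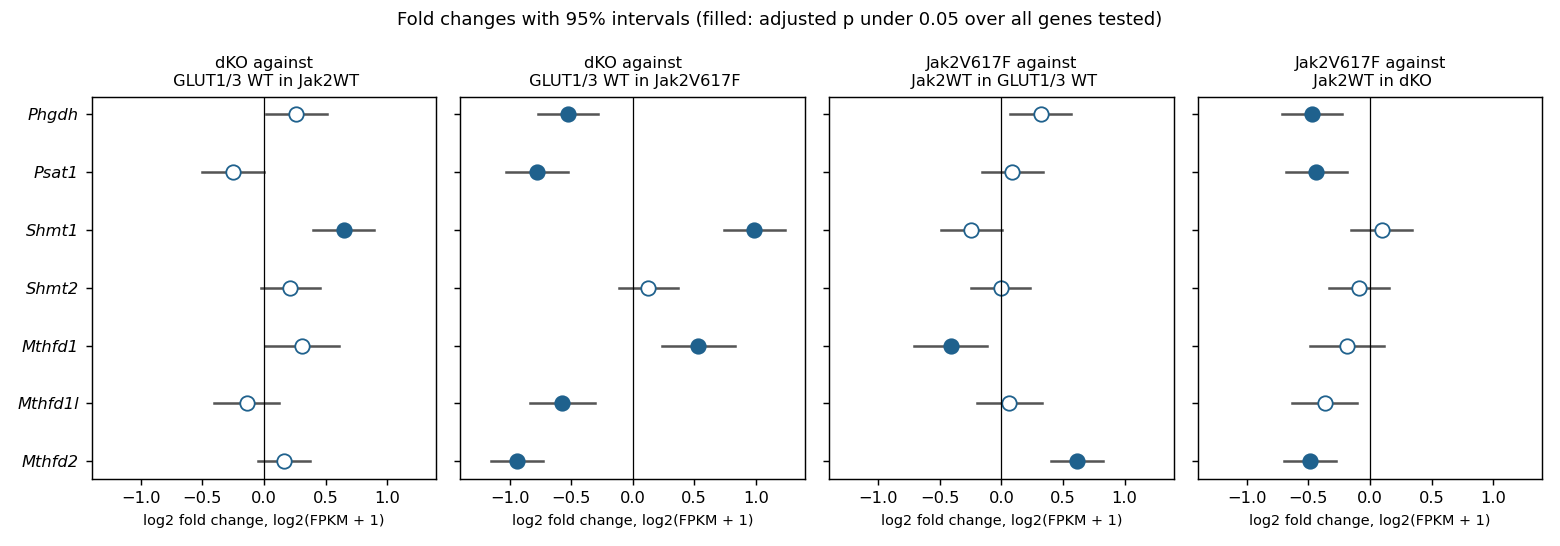
Log2 fold changes on the log2(FPKM + 1) scale (horizontal axis) of the 7 tested genes in 4 comparisons, with 95% intervals as lines, filled where the limma adjusted p was under 0.05. In Jak2V617F 4 genes are filled to the left of 0 and Shmt1 and Mthfd1 to the right, whereas in Jak2WT only Shmt1 is filled.

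The difference between both responses was tested as the interaction of background and dKO. It was negative and past the threshold for Mthfd2 and Phgdh, 2 of the 7 genes, and no gene was past it in the positive direction. Of all tested genes, 5.91% were called lower and 4.72% higher, or 698 and 558, which became 393 and 1177 with libraries scaled to the same total. Mthfd2 had an interaction of -1.10 on the log2 scale with an SE of 0.13 and an adjusted p of 0.00881 (limma). Phgdh had an interaction of -0.79 with an SE of 0.15 and an adjusted p of 0.0227 (limma). Its clones had higher FPKM after GLUT1/3 loss in Jak2WT and lower FPKM in Jak2V617F. Psat1 had an interaction of -0.53 (limma, adjusted p = 0.0678) and Mthfd1l of -0.43 (limma, adjusted p = 0.122). The interaction of Shmt1 was 0.34 with an interval from -0.01 to 0.69, so a larger rise in Jak2V617F than in Jak2WT was not shown. These calls rest on few libraries. Without Jak2WT GLUT1/3 WT clone 1, Jak2WT GLUT1/3 WT clone 3 or Jak2WT dKO clone 1 neither gene was called, at adjusted p of up to 0.057 for Mthfd2 and 0.0934 for Phgdh. Over all genes, the calls fell from 558 higher and 698 lower to 2 and 3 without Jak2WT GLUT1/3 WT clone 3. Without Jak2V617F GLUT1/3 WT clone 1 Phgdh was lost and Mthfd2 was kept.

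Between the GLUT1/3 WT clones of both backgrounds, Mthfd2 differed most among the 7 genes. It had 43.6 and 42.9 FPKM in Jak2WT and 62.5 and 71.5 in Jak2V617F, 1.55 times as much. The log2 fold change was 0.62 with an SE of 0.090 (limma, adjusted p = 0.00319), and this call was kept under all 18 alternatives tried. Mthfd1 was lower in Jak2V617F, with 25.5 and 20.7 FPKM against 28.6 and 33.3. Its log2 fold change of -0.41 passed narrowly (SE 0.13, limma, adjusted p = 0.0459) and was lost in 9 of 18 alternatives. These were 1 gene of 7 in each direction, beside 15.3% of all genes higher and 14.9% lower. Phgdh, at 181.6 and 177.4 FPKM against 134.5 and 153.4, had a log2 fold change of 0.32 (limma, adjusted p = 0.0555). Psat1, Mthfd1l and Shmt2 overlapped between the backgrounds, whereas 69.4% of all tested genes did not. Their intervals of the log2 fold change ran from -0.16 to 0.34, -0.20 to 0.33 and -0.25 to 0.24. The sign of the first 2 changed when libraries were scaled to the same total.

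Among the dKO clones, Mthfd2, Phgdh and Psat1 were lower in Jak2V617F than in Jak2WT, which is 3 of the 7 genes against 9.96% of all tested genes, and 0 were higher against 7.12%. Mthfd2 had 48.7 and 48.4 FPKM in the Jak2WT dKO clones and 33.0 and 35.9 in the Jak2V617F dKO clones. Its log2 fold change was -0.48 with an SE of 0.090 and an adjusted p of 0.0126 (limma). Phgdh had a log2 fold change of -0.47 (limma, adjusted p = 0.0233), and Psat1 one of -0.44 (limma, adjusted p = 0.0328). Mthfd1l followed at -0.37 but missed the threshold (limma, adjusted p = 0.0663). Shmt1 overlapped between the backgrounds, whereas 60.6% of all tested genes did not. It had 32.0 and 34.7 FPKM in Jak2WT and 33.3 and 38.2 in Jak2V617F, with an interval of the log2 fold change from -0.15 to 0.34. All 3 calls were lost without either Jak2WT dKO clone or without Jak2V617F dKO clone 1, and that of Psat1 also without either Jak2WT GLUT1/3 WT clone. These 4 groups enter several comparisons each, so the comparisons are not independent of each other.

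The balance between the mitochondrial and the cytosolic enzymes can be read as a ratio of FPKM within a library, which does not depend on the library total. Shmt2 over Shmt1 was 5.03 and 4.60 in Jak2WT GLUT1/3 WT, 3.59 and 3.42 in Jak2WT dKO, 5.15 and 6.36 in Jak2V617F GLUT1/3 WT, and 3.10 and 3.03 in Jak2V617F dKO. The 4 dKO libraries were thus below the 4 GLUT1/3 WT libraries. Mthfd2 over Mthfd1 was 1.53 and 1.29 in Jak2WT GLUT1/3 WT and 1.28 and 1.25 in Jak2WT dKO, against 2.45 and 3.46 in Jak2V617F GLUT1/3 WT and 1.06 and 0.992 in Jak2V617F dKO. It was highest and lowest in the Jak2V617F clones, and the Jak2WT groups lay close together between them. Mthfd1l over Mthfd1 averaged 2.26, 1.64, 3.19 and 1.45 in the same order of groups. Within serine synthesis, Phgdh over Psat1 was 0.745 to 0.946 in the 4 GLUT1/3 WT libraries and 1.04 to 1.15 in the 4 dKO libraries. These ratios are given without a test.

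**Figure D3:**
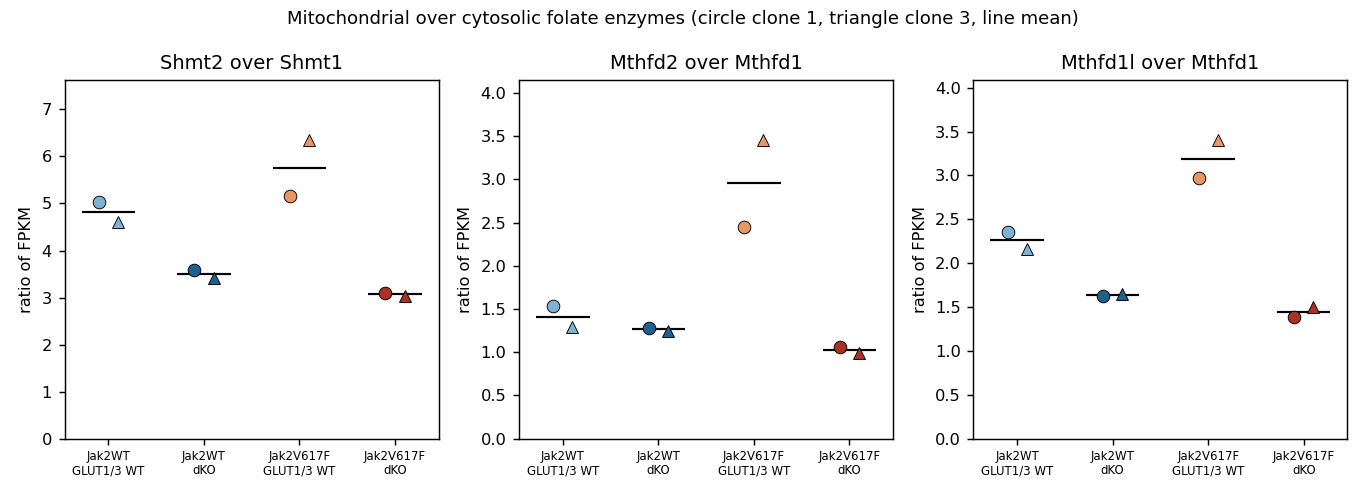
Ratio of the FPKM of a mitochondrial folate enzyme to that of its cytosolic counterpart (vertical axis, starting at 0) in each library, with circles for clone 1, triangles for clone 3 and a line at the group mean. Mthfd2 over Mthfd1 averages 2.96 in Jak2V617F GLUT1/3 WT and 1.02 in Jak2V617F dKO, while the Jak2WT groups average 1.41 and 1.26.

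The genes around the pathway were read from lists by role, each beside the shares of all tested genes, which with GLUT1/3 loss were 13.7% higher and 16.2% lower in Jak2V617F and 7.62% higher and 6.06% lower in Jak2WT. Of 6 glycolytic genes around 3-phosphoglycerate, 4 fell in Jak2V617F with GLUT1/3 loss and 4 in Jak2WT, and 0 rose. The 6 were Gapdh, Pgk1, Pgam1, Bpgm, Eno1 and Pkm. Gapdh read only 5.28 to 18.2 FPKM over the libraries, against 521 to 2026 for Pgk1, and the cause was not tested. The list median was -1.13 in Jak2V617F and -0.62 in Jak2WT. Pgk1, which makes 3-phosphoglycerate, had a log2 fold change of -1.63 in Jak2V617F (limma, adjusted p = 0.00103) and -0.71 in Jak2WT (limma, adjusted p = 0.0377). Pgam1, which draws it on towards pyruvate, changed by -1.58 and -0.72. In Jak2V617F 4 or 5 fell under all 18 alternatives, whereas in Jak2WT 0 were called with no filter or when any of the 4 Jak2WT libraries was left out.

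Among 9 tested transporters of serine and glycine, 3 fell and 0 rose in Jak2V617F, and 3 rose and 0 fell in Jak2WT, beside 16.2% of all genes lower and 7.62% higher. The interaction was past the threshold for 2 of the 9, both negative, beside 5.91% of all genes lower and 4.72% higher, and for at most 1 without either Jak2WT GLUT1/3 WT clone, Jak2WT dKO clone 1 or Jak2V617F GLUT1/3 WT clone 1. The 3 calls in Jak2WT became 0 without either Jak2WT GLUT1/3 WT clone and 1 without either Jak2WT dKO clone, with Slc38a2 among those lost each time. Slc38a2, a carrier of small neutral amino acids, averaged 34.0, 52.1, 70.0 and 39.1 FPKM in Jak2WT GLUT1/3 WT, Jak2WT dKO, Jak2V617F GLUT1/3 WT and Jak2V617F dKO. It rose by 0.60 on the log2 scale in Jak2WT and fell by 0.82 in Jak2V617F, with an interaction of -1.42 (limma, adjusted p = 0.00867) that was lost without Jak2WT GLUT1/3 WT clone 3. The serine carrier Slc1a4 fell by 0.85 in Jak2V617F. Sfxn1, which brings serine into mitochondria, was not called in either background. Among 11 tested genes that use or break down serine, 1 rose and 4 fell in Jak2V617F and 0 changed in Jak2WT. Only 2 of the 4 were lower without Jak2V617F GLUT1/3 WT clone 1 or 3, with no filter or with only the groups compared, and the 1 that rose, Sars2, was lost whichever library was left out, at an adjusted p of up to 0.181 (limma). The 1 riser of 11 lies beside 13.7% of all genes, and the 0 in Jak2WT beside 7.62% and 6.06%. Sars, the cytosolic seryl-tRNA synthetase, averaged 91.2 FPKM in Jak2V617F GLUT1/3 WT and 41.7 in Jak2V617F dKO, and its log2 fold change was -1.13 (limma, adjusted p = 0.00209).

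Downstream, folate genes of nucleotide synthesis also rose in Jak2V617F. Of 11 other folate genes, 6 rose and 2 fell with GLUT1/3 loss in this background, against 2 and 0 in Jak2WT, beside 13.7% higher and 16.2% lower of all genes in Jak2V617F. The 6 became 3 without Jak2V617F GLUT1/3 WT clone 3 or with only the groups compared, and the 2 became 0 without any one of the Jak2WT libraries. Tyms, which makes thymidylate, rose by 1.05 on the log2 scale, and Gart of purine synthesis by 0.96. Ggh, which trims folate polyglutamates, changed by -1.04. Tyms averaged 15.1, 14.4, 6.70 and 15.0 FPKM in the same order of groups, so the low group was Jak2V617F GLUT1/3 WT. Of the 6 genes of thymidylate supply, 5 rose in Jak2V617F and 0 changed in Jak2WT, with medians of 1.01 and 0.10. The lists share members, Tyms among them. All 6 genes of the replicative helicase, Mcm2 to Mcm7, rose in Jak2V617F with a median of 1.14, and 0 of them changed in Jak2WT. Between the GLUT1/3 WT clones the same helicase genes were all lower in Jak2V617F, beside 14.9% of all genes, with a median of -1.03. The helicase genes are known to be expressed in cycling cells.

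In the methionine cycle and transsulfuration, 1 of 10 tested genes rose and 4 fell in Jak2V617F, and 2 rose and 0 fell in Jak2WT. The riser in Jak2V617F lies beside 13.7% and the 4 that fell beside 16.2% of all genes. Among the 4 was Mtrr, lost in 7 of 8 fits without a library, while Ahcy and Ahcyl2 were kept in all 8. The lower count was 2 with only the groups compared, and the higher count 3 with either scaling and with voom. Among the 4 was also Cth, which passed the filter only through the group where it was high, so its call carries no weight. The 1 that rose in Jak2V617F became 2 without Jak2V617F GLUT1/3 WT clone 1 or dKO clone 3. Mat2a, which makes S-adenosylmethionine, rose in both backgrounds, by 0.83 in Jak2V617F and 0.78 in Jak2WT. In Jak2WT no gene of this list was called without GLUT1/3 WT clone 1, and 1 without each of the other 3 Jak2WT libraries. Cth, the last enzyme of transsulfuration, averaged 2.04 FPKM in Jak2V617F GLUT1/3 WT and at most 0.0723 FPKM in the other 3 groups. Of the glycine cleavage system, 3 genes were tested and only Dld was called in Jak2V617F, with a log2 fold change of -0.53, and 0 in Jak2WT.

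ATF4 and its known targets outside the 9 genes were lower after GLUT1/3 loss in Jak2V617F. Of 17 tested, 15 fell and 0 rose, beside 16.2% and 13.7% of all genes, with a median log2 fold change of -0.95, and under the 18 alternatives 13 to 15 fell. In Jak2WT 2 rose and 2 fell, with a median of -0.07, and 0 or 1 rose and 1 fell without any one of the Jak2WT libraries. Atf4 itself averaged 109, 134, 180 and 111 FPKM in Jak2WT GLUT1/3 WT, Jak2WT dKO, Jak2V617F GLUT1/3 WT and Jak2V617F dKO. Its mRNA fell by 0.69 on the log2 scale in Jak2V617F (limma, adjusted p = 0.00129) and rose by 0.30 in Jak2WT (limma, adjusted p = 0.0461), a call lost without any one of the Jak2WT libraries or without either Jak2V617F GLUT1/3 WT clone. Asns, the asparagine synthetase, averaged 72.8, 69.4, 134 and 52.6 FPKM in the same order. Slc7a11, the cystine carrier, fell by 1.85 and Gpt2, the mitochondrial alanine transaminase, by 1.85. Between the GLUT1/3 WT clones, 11 of the 17 were higher in Jak2V617F and 0 lower, beside 15.3% and 14.9% of all genes. In the interaction 12 of the 17 were lower, beside 5.91% of all genes, but only 1 without Jak2WT GLUT1/3 WT clone 1 or without Jak2WT dKO clone 1, and 0 without Jak2WT GLUT1/3 WT clone 3. Of 8 genes of Myc and its partners, Mlx rose and 2, Mycn and Mxi1, fell in Jak2WT, beside 7.62% and 6.06% of all genes. The calls of Mlx and Mycn were lost without any one of the Jak2WT libraries, and that of Mxi1 without Jak2WT GLUT1/3 WT clone 1. In Jak2V617F 1 of the 8 rose and 4 fell, beside 13.7% and 16.2% of all genes, and Myc fell by 0.47. Without Jak2V617F GLUT1/3 WT clone 1 the 4 became 2 and Myc was lost, and with only the groups compared 0 rose and 2 fell.

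**Figure D4:**
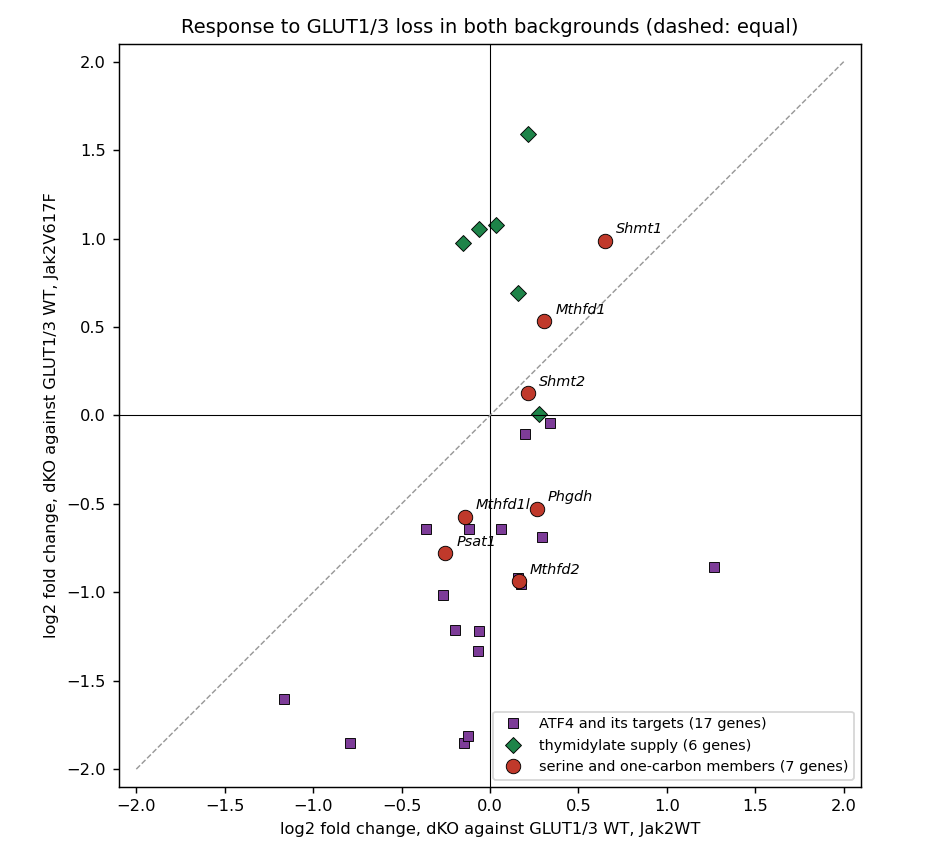
Log2 fold change of dKO against GLUT1/3 WT in Jak2WT (horizontal axis) and in Jak2V617F (vertical axis) for the 7 tested genes (circles), 17 tested genes of the ATF4 list (squares) and 6 of thymidylate supply (diamonds), with equal change on the dashed line. Mthfd2, Phgdh, Psat1 and Mthfd1l lie in the lower part with the ATF4 list, and Shmt1 and Mthfd1 in the upper part with most of the thymidylate genes.

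The patterns over the 8 libraries were also compared directly, as the root mean square difference of centred log2(FPKM + 1). Among the 7 genes, Psat1 and Mthfd1l were the closest pair at 0.101, and Mthfd2 and Shmt1 the farthest at 0.712. Phgdh was nearest to Mthfd1l at 0.161, Mthfd2 to Phgdh at 0.186, and Shmt1 to Mthfd1 at 0.238. Over all tested genes, the nearest pattern to Phgdh was that of Xpot at 0.0704, to Psat1 that of Abcd3 at 0.0465, and to Mthfd2 that of Irf2bp2 at 0.0647. The nearest to Shmt1 was Cdk2ap2 at 0.0754, to Mthfd1 Lsm7 at 0.0481, to Mthfd1l Alg9 at 0.0468 and to Shmt2 Mrps10 at 0.0529. Each rests on 8 libraries in 4 groups, and the measure is a description with no test.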

How the data were processed

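RNA from 8 clones of 32D cells was sequenced as poly(A) libraries with paired reads. According to the submitters' processing notes and the methods, reads were cleaned with fastp 1.0.1, aligned to mm39 (GRCm39) with HISAT2 2.2.1 and counted per gene with featureCounts 2.0.6. The authors deposited FPKM per gene and library. The annotation release, whether counting used strand, and the total behind FPKM were not given in the sources used here. All 8 columns were used, each assigned by the labels, and 0 were left over.

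FPKM times gene length gave whole reads for 100% of values within a tolerance of 0.01, and these set the depths given. Genes that reached 1 FPKM in 2 or more libraries, 11818 of 56748, were tested on the scale log2(FPKM + 1) with limma 3.58.1 (R 4.3.3). The fit held 1 mean per group and the trend of the spread, and used 4 residual degrees of freedom plus 3.34 shared across genes. Benjamini-Hochberg adjustment covered all 11818 genes, and a call needed an adjusted p under 0.05. A fold change on this scale understates the change of low genes. With 2 clones against 2, the smallest two-sided p that an exact permutation test of 1 gene can give is 0.33. The p-values therefore rest on the shared spread, and they set a change against the spread between clones. They do not cover the spread between separately transduced lines of a background, of which the methods describe no replicates. The test was checked on simulated data. Each of the 7 tested genes had at least 1494 reads in a library. In groups whose clones lay closest, counting error can be as large as the spread between them.

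The members, lists and tests were chosen with earlier results of these data known. Genes named outside the 9 are those the groups were made by, marker genes, genes sharing a locus or a pattern with a member, and up to 4 genes per list and comparison with the largest called change and no overlap of clones. Sfxn1, Gapdh, Sars2, Gata1, Hba-a1, Hba-a2, Mtrr, Ahcy, Ahcyl2, Tyms, Atf4, Asns and Pgk1 in further comparisons were named after their values were seen. Copies of transcripts were sought with minimap2 2.31-r1302 in GRCm39, and shared exons in GENCODE vM39. Figures were made with matplotlib 3.10.9 in Python 3.11.15. Alternatives were a pseudocount of 0.1, no filter or a filter on the mean, the empirical Bayes step without the trend or robust, other scalings, voom on the recovered reads, only the groups compared, a block for the clone number and leaving out each library. The list ranges over alternatives were added after seeing the data. A few items are not reported here.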

Additional observations from a re-analysis of the deposited data

Results flagged for a closer look

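The response to GLUT1/3 loss differed between Jak2WT and Jak2V617F by a test of the difference itself for 2 of the 7 genes, both with a negative interaction, beside 5.91% of all genes lower and 4.72% higher. For Mthfd2 the interaction was -1.1 on the log2 scale (limma, adjusted p = 0.00881), with fold changes of 0.16 in Jak2WT and -0.94 in Jak2V617F. For Phgdh it was -0.79 (limma, adjusted p = 0.0227), with fold changes of 0.26 and -0.53. Leaving out a library ended the Mthfd2 call in 3 and the Phgdh call in 4 of 8 fits, and with no filter Phgdh was lost too. Both were lower in dKO clones of Jak2V617F in 2 of 2 clones, and 64.3% of all tested genes had clones apart with GLUT1/3 loss in Jak2V617F. The groups hold 2 clones each, too few to look for a single outlying clone.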

How the results depend on the processing

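Of 623 values of single genes under the alternatives, 561 kept their direction and their side of the threshold, 43 lost the call, 9 gained one and 10 changed sign, none of the last a call in the main test. With GLUT1/3 loss in Jak2V617F, Mthfd2, Psat1, Phgdh and Shmt1 stayed called in all 18 alternatives. The 10 changes of sign were, for Jak2V617F against Jak2WT among GLUT1/3 WT clones, Psat1 at -0.0632 and Mthfd1l at -0.0885 with libraries scaled to the same total, both at -0.016 and -0.0438 with voom, and Shmt2 at 0.04 without Jak2WT GLUT1/3 WT clone 3 and 0.107 without Jak2V617F GLUT1/3 WT clone 1, in a range from -0.119 to 0.107 over the libraries left out. Among dKO clones Shmt1 ranged from -0.000362, without Jak2V617F dKO clone 3, to 0.19. The interaction of Shmt2 was 0.104 scaled to the same total and 0.0636 with voom, and ranged from -0.2 to 0.0261, the latter without Jak2V617F GLUT1/3 WT clone 3.

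Counts of called genes changed as follows, and the cause was not tested. In Jak2V617F, 1 instead of 2 rose with no filter and with only the groups compared, and with the latter 3 instead of 4 fell. Between GLUT1/3 WT clones, 2 instead of 1 were higher with scaling by the median ratio, and the 1 lower became 0 with no filter, without the trend, with only the groups compared and with the replicate block of the clone number, and 2 scaled to the same total and with voom. Among dKO clones 1 instead of 3 was lower with no filter and with only the groups compared, 2 scaled to the same total, where Psat1 was lost, and 4 with voom, where Mthfd1l was gained, and in the interaction 1 instead of 2 with no filter. Leaving out a library gave 0 to 1 higher in Jak2WT, 1 to 2 higher in Jak2V617F, 1 to 2 higher and 0 to 1 lower between GLUT1/3 WT clones, 0 to 4 lower among dKO clones and 0 to 4 lower in the interaction. The lone clone left in a group was then assumed to vary like the others. The clone numbers name separate clones and their deviations correlated between -0.254 and 0.152, so they do not pair the libraries. Scaling to the same total moved the median of all genes to -0.12 between GLUT1/3 WT clones and to 0.12 in the interaction. Calls over all genes with GLUT1/3 loss were 1614 higher and 1919 lower in Jak2V617F as deposited and 2192 and 1452 with that scaling, in Jak2WT 901 and 716 against 706 and 1378, between GLUT1/3 WT clones 1812 and 1765 against 1223 and 2930, and in the interaction 558 and 698 against 1177 and 393, or 1321 and 575 with voom. With only the groups compared, calls with GLUT1/3 loss were 764 higher and 853 lower in Jak2V617F but 1145 and 917 in Jak2WT. In that fit they were 1744 and 1635 between GLUT1/3 WT clones, and among dKO clones 842 higher and 1177 lower became 436 and 592. Leaving out a library also changed the calls over all genes in the other comparisons, mostly downwards. Between GLUT1/3 WT clones, however, both counts rose without either Jak2V617F dKO clone. Among dKO clones the lower count rose without Jak2V617F dKO clone 3. The fewest were 1079 higher, without Jak2V617F GLUT1/3 WT clone 3, and 1017 lower, without Jak2V617F GLUT1/3 WT clone 1, with GLUT1/3 loss in Jak2V617F, 802 higher and 746 lower between GLUT1/3 WT clones, without Jak2WT GLUT1/3 WT clone 1 and clone 3, and 272 and 348 among dKO clones, without Jak2WT dKO clone 1.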
